A study of Mus musculus with 2 samples.

Results

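The choroid plexus is the folded tissue inside the brain ventricles that secretes cerebrospinal fluid, and its epithelium carries a characteristic set of genes. The 10 genes described here (Ttr, Kl, Enpp2, Folr1, Kcne2, Clic6, Aqp1, Kcnj13, Slc4a5 and Otx2) are known from that epithelium and were picked by name. Some earlier values of these libraries were already known when they were picked, Ttr, Folr1, Kcne2, Otx2 and Kl among them. They are 10 of 43346 mouse genes in the deposited gene tables. The study profiled total RNA from the whole forebrain of healthy mouse embryos of strain B6NCrl, male and female pooled, at 15.5 days of development. There was 1 group with 2 biological replicates, a pool of 78 embryos (replicate 1) and another of 62 embryos (replicate 2), each starting from 10 ng, and spike-in transcripts were added to the RNA. No treatment, genotype or time was contrasted, so the results are levels and the ratio between the pools, and no test was possible.

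In background, choroid plexus epithelial cells arise at the dorsal midline of the brain next to the cortical hem, a source of BMP and Wnt signals. They are joined by tight junctions into a barrier between blood and cerebrospinal fluid, move salt and water into the ventricles through transporters and channels on both faces, and secrete carrier proteins into the fluid. The homeodomain factor OTX2 is needed for the tissue to form and to persist. None of the 10 genes is exclusive to this epithelium. Enpp2 is also known from oligodendrocyte precursors, Aqp1 from red cells and vessels, Kl from kidney, and Otx2, Kcnj13 and Slc4a5 from the retinal pigment epithelium. In RNA from whole forebrain, the cells that made a transcript are not seen, and fewer cells of a type cannot be told apart from less RNA per cell.

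The promoter table of RefSeq (build GRCm38.p6, the assembly of the deposited mm10 tables) held 10 entries for 6 of the 10 genes, namely Kcnj13, Kl, Aqp1, Slc4a5, Otx2 and Kcne2. The 250 bases before each start were searched on both strands for 3 motifs. These were TAATCC, a bicoid-type homeodomain site of the kind that OTX proteins bind, GTAAACA, a forkhead site, and TATAAA, the TATA box. No match overlaps another, but the windows of the 2 most upstream Otx2 starts overlap. The following 3 stretches are shown because they lie before the annotated starts of Kcne2, a gene with a start that holds nearly all of its level and another that holds little, and of Kcnj13, whose start has the motif match nearest to it. Capitals mark a motif match.
Kcne2, start of Kcne2-201, chr16:92292139-92292388, plus strand: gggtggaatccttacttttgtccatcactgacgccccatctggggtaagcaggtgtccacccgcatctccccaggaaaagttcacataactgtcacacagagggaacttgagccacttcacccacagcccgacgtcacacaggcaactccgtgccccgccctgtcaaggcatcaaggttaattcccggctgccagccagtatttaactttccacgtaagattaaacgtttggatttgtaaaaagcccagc
Kcne2, start of Kcne2-202, chr16:92295366-92295615, plus strand: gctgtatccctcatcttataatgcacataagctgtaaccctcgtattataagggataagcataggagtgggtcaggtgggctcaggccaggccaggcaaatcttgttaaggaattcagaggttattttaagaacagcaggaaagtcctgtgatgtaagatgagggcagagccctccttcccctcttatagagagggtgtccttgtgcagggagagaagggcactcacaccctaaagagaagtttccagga
Kcnj13, start of Kcnj13-201, chr1:87394730-87394979, minus strand: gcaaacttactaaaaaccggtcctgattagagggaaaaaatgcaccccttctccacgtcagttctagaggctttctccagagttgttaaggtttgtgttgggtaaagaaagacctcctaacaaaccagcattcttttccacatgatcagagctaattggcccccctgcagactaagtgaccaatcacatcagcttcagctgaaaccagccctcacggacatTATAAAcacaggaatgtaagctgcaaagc

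Neither Kcne2 window holds any of the 3 motifs. The Kcnj13 window holds TATAAA, which begins 29 bases before the start. TATAAA was found in 3 of the 10 entries (Kcnj13, Slc4a5 and an upstream start of Otx2) against 12.4% of all 32851 promoter entries. In Slc4a5 the match was on the opposite strand, 127 bases before the start, and in Otx2 it was 192 bases before the start. Both shares take either strand and any position in the window, so they do not count TATA boxes in use. TAATCC was found in 1 of the 10, against 6.25% of all, and GTAAACA in 0 of the 10, against 3.17%. The single homeodomain match is on the opposite strand, 211 bases before a RefSeq start of Otx2. That start lies 3 bases from the start of the leading Otx2 transcript. All 250 bases of this window are also exon bases of other annotated Otx2 transcripts (Otx2-203 and Otx2-209). The match is shown with 12 bases on either side, since OTX2 binds such letters itself.
Otx2, chr14:48665303-48665332, minus strand: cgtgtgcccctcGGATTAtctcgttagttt

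These matches describe letters in the windows and do not show binding.

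Among secreted products, Ttr dominated the set. It encodes transthyretin, the carrier of thyroid hormone and of retinol-binding protein in cerebrospinal fluid. Ttr (ENSMUSG00000061808.3) was at 761 TPM in replicate 1 and 331 TPM in replicate 2, where TPM is a gene's share of the transcripts of a library, corrected for length and scaled to the same total in each library. It ranked 171st among protein-coding genes by its mean of 546 ± 304 TPM (SD, n = 2), and it held 87.0% and 83.3% of the summed TPM of the 10 genes. The 19947 and 7975 reads behind these values gave a log2 ratio of replicate 2 over replicate 1 of -1.18, with a 95% interval from -1.22 to -1.14. This is a level 2.27-fold higher in replicate 1. Here and below, ratios were computed from read counts scaled by TMM factors, which equalise libraries on the bulk of genes, and intervals are exact binomial and cover counting error only.

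Enpp2, which encodes autotaxin, a secreted enzyme that makes lysophosphatidic acid, was the next gene in level. It stood at 25.6 and 19.2 TPM (chr15:54838901-54952892, minus strand, mm10). Its log2 ratio was -0.40 (interval -0.51 to -0.29), which is nearer to 0 than that of Ttr, and the intervals of the 2 genes do not overlap. Kl, which encodes klotho, a co-receptor for FGF23 that is also shed into the fluid, was lowest of the 10 (chr5:150952607-150993817, plus strand). It had 30 and 25 reads, or 0.260 and 0.230 TPM. Its log2 ratio was -0.12 with an interval from -0.95 to 0.69, so a difference between the pools was not detectable at this depth, and with spike-in scaling the ratio turned to 0.08.

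Among transport genes, Folr1 stood highest and Slc4a5 lowest. Folr1 encodes folate receptor alpha, which carries folate across the epithelium (chr7:101858331-101870788, minus strand), and was at 25.2 and 15.6 TPM. Kcne2, a small beta subunit of potassium channels (chr16:92292389-92298129, plus strand), was at 19.3 and 9.53 TPM. Aqp1, the water channel of the ventricular face (chr6:55336432-55348555, plus strand), was at 10.2 and 4.76 TPM. All 3 were lower in replicate 2.

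Kcnj13, an inwardly rectifying potassium channel (chr1:87386363-87394729, minus strand), was at 9.75 and 4.97 TPM. Clic6, of the chloride intracellular channel family (chr16:92485736-92541243, plus strand), was at 7.50 and 3.34 TPM. Slc4a5, a sodium bicarbonate cotransporter of the ventricular face (chr6:83219828-83304945, plus strand), had 82 and 40 reads, or 0.70 and 0.38 TPM. Slc4a5 and Kl were the only members under 1 TPM, and 8 of the 10 genes reached 1 TPM in both libraries. The identity gene Otx2 (chr14:48657677-48673819, minus strand) was at 14.9 and 8.42 TPM, between Kcne2 and Aqp1 in the order of levels.

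**Figure D1:**
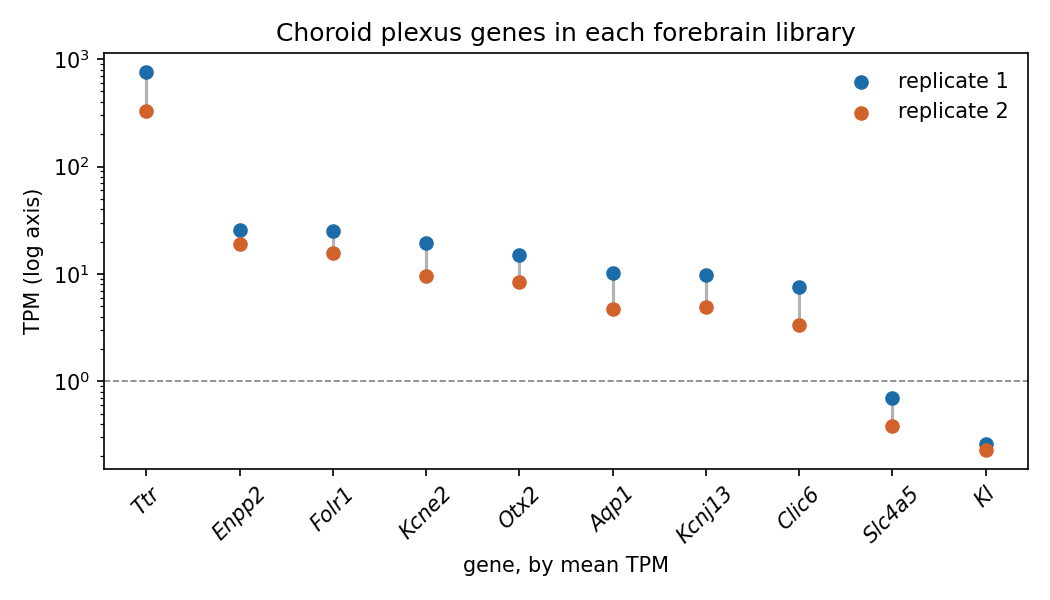
Level of each of the 10 genes in TPM (log axis) in replicate 1 (blue) and replicate 2 (orange), with genes ordered by mean TPM and the dashed line at 1 TPM. Ttr stands apart at 761 and 331 TPM, and for each gene the value of replicate 1 is the higher.

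The order of the 10 genes by TPM was the same in both libraries except for Aqp1 and Kcnj13, which changed places (10.2 against 9.75 TPM in replicate 1, and 4.76 against 4.97 in replicate 2). Ttr lay above Enpp2, Clic6 above Slc4a5, and Slc4a5 above Kl with no overlap of the library values. The other 6 neighbouring pairs in the order (from Enpp2 and Folr1 down to Kcnj13 and Clic6) overlapped between libraries, so their order does not stand beyond the spread of the pools. Without correction for length, in CPM (reads scaled to library size), Folr1 moved from the third place to the seventh and Clic6 from the eighth to the fifth.

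All 10 genes had a lower TPM in replicate 2, though the interval of the log2 ratio of Kl ran from -0.95 to 0.69. The median log2 ratio of TPM over all genes with 10 summed reads was -0.02, so a lower TPM by itself was common. The summed level of the set was 874 TPM in replicate 1 and 398 TPM in replicate 2, and without Ttr it was 113 and 66.4 TPM. A log2 ratio of -0.58 or lower, which is about 1.5-fold, was reached by 8 of the 10 genes, against 6.3% of the 19165 genes with 10 or more summed reads and 4.63% of the protein-coding genes among them. A 2-fold lower level in replicate 2 was reached by Ttr, Clic6 and Aqp1, which are 3 of the 10, against 2.64% of all genes with that many reads. With spike-in scaling 0 of the 10 reached 2-fold, with Ttr at -0.98, Clic6 at -0.95 and Aqp1 at -0.87. With total counts, no count filter or either TPM ratio 4 of the 10 did, since Kcne2 then passed as well. The earlier values that were known when these genes were picked came from the same comparison of pools, so the count is a description and is no evidence of its own. Just inside the limit of -0.58 was Otx2 at -0.74 and just outside it Enpp2 at -0.40.

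The log2 ratios of the 8 genes, which are those that passed the limit on this same ratio, ran from -1.18 for Ttr to -0.74 for Otx2. After Ttr they were -1.14 for Clic6 (interval -1.36 to -0.94), -1.07 for Aqp1 (-1.29 to -0.86), -0.997 for Kcne2 (-1.19 to -0.81) and -0.95 for Kcnj13 (-1.27 to -0.64). They were -0.89 for Slc4a5 (-1.48 to -0.33), -0.85 for Folr1 (-1.10 to -0.60) and -0.74 for Otx2 (-0.94 to -0.54). The intervals of Clic6, Aqp1, Kcnj13, Slc4a5 and Kcne2 each held or overlapped the interval of Ttr, while those of Folr1 and Otx2 lay above it. The median over the 10 genes was -0.92, beside 0.00 over all genes with 10 summed reads. With spike-in scaling, which moved the median of all genes to 0.20, Otx2 was at -0.54. Then 7 of the 10 genes passed the limit, against 4.22% of all genes. With the deposited posterior mean TPM, Slc4a5 was at -0.54 and 7 passed, against 4.09% of all genes.

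**Figure D2:**
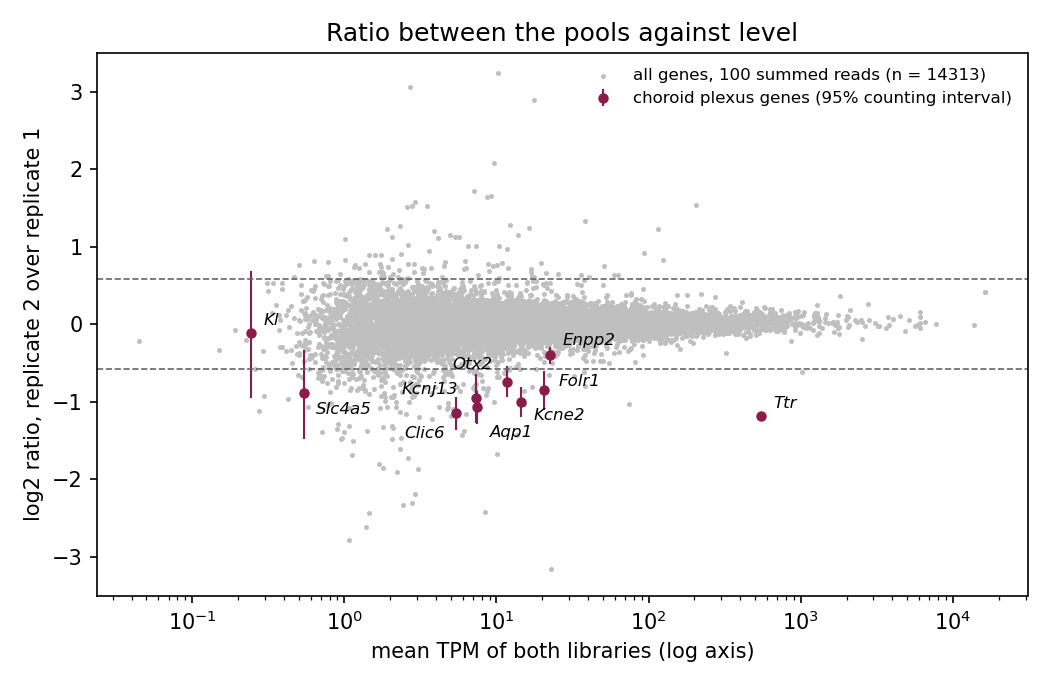
Log2 ratio of replicate 2 over replicate 1 against mean TPM (log axis) for 14301 of the 14313 genes with 100 or more summed reads (grey; 12 lie outside the range shown), with the 10 choroid plexus genes and their 95% counting intervals in dark red and dashed lines at -0.58 and 0.58. Ttr lies at -1.18 below the narrow band of abundant genes, while Enpp2 (-0.40) and Kl (-0.12) lie nearest to 0.

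Among the 14313 genes with 100 or more summed reads, 1.55% were at -0.58 or lower, and 8 of the 9 members with that many reads were. At a 2-fold limit the share of all these genes was 0.447%, and 3 of the 9 members were past it, or 0 with spike-in scaling. Genes higher in replicate 2 by 1.5-fold were 0.762% of all, and 0 of the 9 members. Ordered from the lowest ratio, Ttr was 41st, Clic6 45th, Aqp1 53rd, Kcne2 65th, Kcnj13 69th, Slc4a5 82nd, Folr1 95th, Otx2 132nd and Enpp2 438th. Of 10610 protein-coding genes with 100 summed reads whose mean level was at least 5 TPM, Ttr was 6th from the lowest, Clic6 9th, Aqp1 11th, Kcne2 13th and Kcnj13 15th. With 2 libraries this order rests on a single ratio for each gene.

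Kcne2 and Clic6 lie on the same strand of chromosome 16, with 187606 bases and 8 annotated genes between them, 4 of these protein-coding. Kcne1, another beta subunit gene of potassium channels, lies between them and had 0 reads in replicate 1 and 3 reads in replicate 2. Both neighbours were lower in replicate 2, by 2.00-fold for Kcne2 and 2.21-fold for Clic6.

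Kcnj13 overlaps Gigyf2, which is on the opposite strand, and 623 of its 1270 exon bases are also exon bases of Gigyf2. Gigyf2 was at 58.1 and 56.6 TPM, about level between the pools, while Kcnj13 was 1.93-fold higher in replicate 1. The strand setting was not given in the sources used here, so the level of Kcnj13 is uncertain. Otx2 shares 154 of its 4221 exon bases with the antisense gene Otx2os1, which was at 1.57 and 0.630 TPM. Folr1 overlaps Anapc15 on the opposite strand with no shared exon bases.

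Transcripts were taken from the deposited transcript tables, which give each transcript's percent of its gene's TPM, and carry names from GENCODE M21. A single transcript held all of the level of Ttr, Kl, Clic6, Aqp1 and Kcnj13 in both libraries. Kcne2-201, from the upstream of the gene's starts shown above, held 94.5% and 92.1% of Kcne2, and Kcne2-202 held 5.55% and 7.94%. Enpp2-201 held 85.7% and 86.0% of Enpp2, with 3 other transcripts sharing the rest.

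Folr1 and Otx2 were spread over several transcripts. Folr1-201, of 960 bases, held 52.8% and 52.7% of Folr1 by TPM. The short Folr1-213, of 331 bases, held 20.9% and 30.4%, and Folr1-206, of 350 bases, held 14.3% and 13.7%. By estimated reads, without length correction, Folr1-201 held 68.2% and 76.9%, Folr1-213 7.30% and 11.9%, and Folr1-206 5.40% and 5.81%. Of 17 annotated Folr1 transcripts, 6 had reads in either library. Folr1-205, whose start lies further upstream, had 67.3 estimated reads in replicate 1 and 9.11 in replicate 2, against 268 and 152 for Folr1-201.

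Otx2-201, which starts inside the gene and has the homeodomain letters shown above before it, held 50.6% and 57.5% of Otx2. By estimated reads it held 64.5% and 70.0%. Otx2-202, from an upstream start (5 exons, against 4 in Otx2-201), held 30.6% and 25.4%. Otx2-205 held 10.7% and 6.91%, and Otx2-208 held 4.98% and 10.2%. The leading transcript was thus the same in both libraries for each of these genes. Slc4a5 was the exception: Slc4a5-201 held 53.3% in replicate 1 and 0% in replicate 2, where the 40 reads were all given to Slc4a5-202. These 2 transcripts share their start and have 5123 and 5039 bases.

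**Figure D3:**
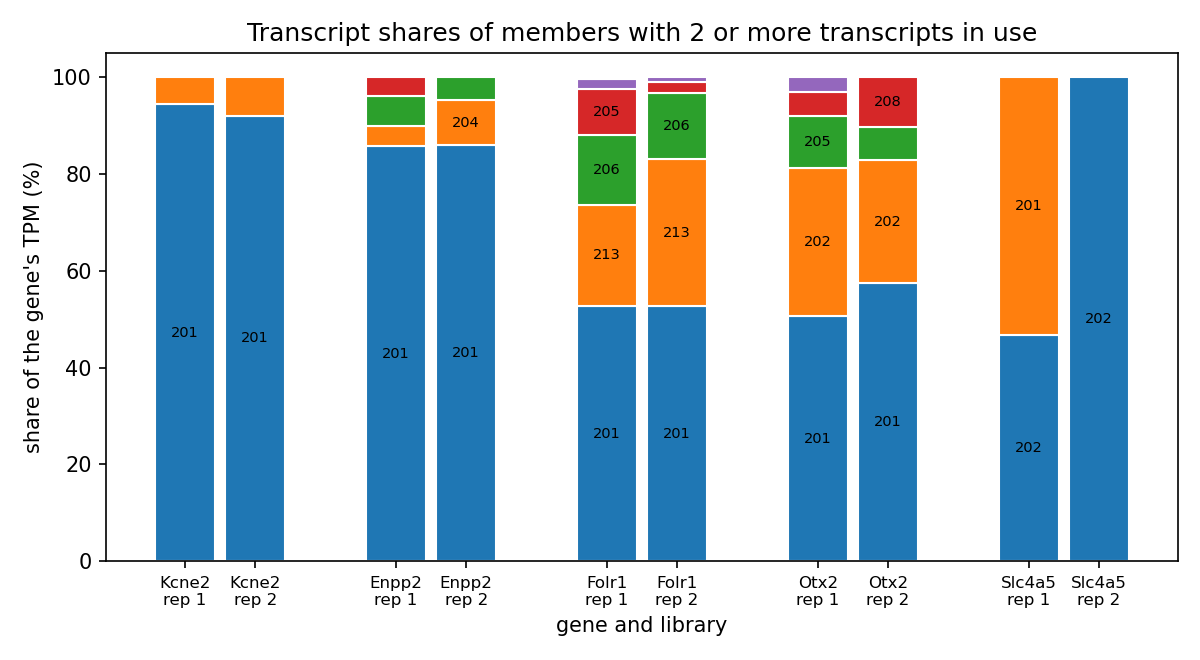
Share of each gene's TPM held by its annotated transcripts (bars to 100%) in both libraries, for the 5 members with reads on more than 1 transcript. Numbers are GENCODE transcript suffixes, colours follow the rank within a gene, and the leading transcript is the same in both libraries except in Slc4a5.

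Further genes linked to the choroid plexus were set beside the 10 in lists by role. In these lists together, 26 of 98 genes with 10 summed reads were at -0.58 or lower and 2 were at 0.58 or higher, against 6.3% and 5.12% of all genes. Their median log2 ratio was -0.14. With spike-in scaling the counts were 18 and 4, where 4.22% of all genes were lower and the share higher was not computed. The median was then 0.06, beside 0.20 over all genes. Many of these genes are also expressed widely in the brain, and the lists were not tested as sets.

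Of 16 genes in a list made mainly of secreted products, 6 were at or below the limit. Sostdc1, an antagonist of BMP and Wnt signals, was at 12.9 and 6.39 TPM (log2 ratio -0.996), and Wfikkn2, a protease inhibitor domain protein, was at 6.49 and 3.05 TPM (-1.07). The calmodulin-like gene Calml4 (9.64 and 4.84 TPM), which does not encode a secreted protein, the copper-binding ceruloplasmin gene Cp (3.87 and 2.34 TPM) and Prr32 (4.06 and 1.20 TPM) were also lower. The abundant secreted genes were not: Cst3 was highest at 410 and 381 TPM, with a log2 ratio of -0.09. Clu, at 64.5 and 44.9 TPM, stood between with -0.49.

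Of 20 genes of ion and water transport, 3 were at or below the limit. The Na,K-ATPase modulator Fxyd1 was at 8.93 and 5.0 TPM (-0.82) and the carbonic anhydrase Car12 at 5.01 and 2.84 TPM (-0.81). The highest was Atp1b1, the beta subunit of the sodium pump, at 84.3 and 66.4 TPM (-0.32). Slc12a2, the chloride cotransporter of the ventricular face, was at 4.94 and 5.66 TPM (0.22). Of 30 genes of solute transport and receptors, 5 were at or below the limit and only Col8a2 of these held 1 TPM in both libraries, at 2.5 and 1.65 TPM (-0.58). With spike-in scaling Col8a2 was at -0.38, and 4 of the list were lower (against 4.22% of all genes) and 2 higher. By TPM ratio Col8a2 was at -0.57. The highest of that list, the glucose transporter Slc2a1, was at 76.9 and 78.8 TPM (0.05).

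Of 8 genes of tight junctions and epithelial keratins, 4 were at or below the limit. The keratins Krt18 (6.5 and 3.0 TPM, log2 ratio -1.09) and Krt8 (3.56 and 1.74 TPM, -1.002) and the claudin Cldn1 (4.34 and 1.86 TPM, -1.20) were near Ttr in ratio. The fourth was Cldn2, the pore-forming claudin of leaky epithelia, with 117 and 37 reads (-1.51). In contrast, the junction gene Tjp1, highest of the list, was at 11.4 and 12.3 TPM (0.21), and Cdh1 was at 1.02 and 1.5 TPM (0.58).

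Of 24 regulators and genes of the cortical hem with 10 reads, 8 were at or below the limit, 4 of these just past it at 1 TPM or more. Msx1, a homeodomain factor of the dorsal midline, was at 17.1 and 11.3 TPM (-0.58), Foxj1, the regulator of motile cilia, at 12.2 and 7.87 TPM (-0.61), and the Wnt potentiators Rspo2 and Rspo1 at -0.63 and -0.61. The rest were under 1 TPM in replicate 2, namely Wnt3a (111 and 55 reads, -0.87), Ccno (79 and 38 reads, -0.90), Msx2 (-0.75) and Gmnc (-2.18). Lmx1b was higher (6 and 11 reads, 0.96). With spike-in scaling 3 of the 24 remained past the limit as lower, against 4.22% of all genes. These were Wnt3a, Ccno and Gmnc, and Msx1, Foxj1, Rspo2 and Rspo1 were no longer past it. Rfx3, highest of the list at 33.3 and 31.8 TPM, had a ratio of -0.06.

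Among 19 genes of motile cilia, which multiciliated cells of the choroid plexus and ependyma carry, 9 were at or below the limit and all 19 were below 0 with TMM scaling. Cfap126 was at 8.57 and 3.35 TPM (-1.42), Pifo at 7.02 and 3.05 TPM (-1.18), Tekt1 at 9.03 and 5.16 TPM (-0.79), Rsph1 at 5.66 and 3.36 TPM (-0.73) and Dnaic2 at 2.17 and 1.53 TPM (-0.74), while Rsph9, highest of the list at 37.95 and 30.9 TPM, was at -0.28. The list median was -0.52, beside 0.00 over all genes with 10 summed reads. With spike-in scaling it was -0.32, beside 0.20 over all genes, and 7 passed, against 4.22% of all genes. Under that scaling Ccdc40 (0.09), Cfap43 (0.16) and Hydin (0.13) lay above 0. The part of ciliated cells in the ratios of the 10 genes was not tested.

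**Figure D4:**
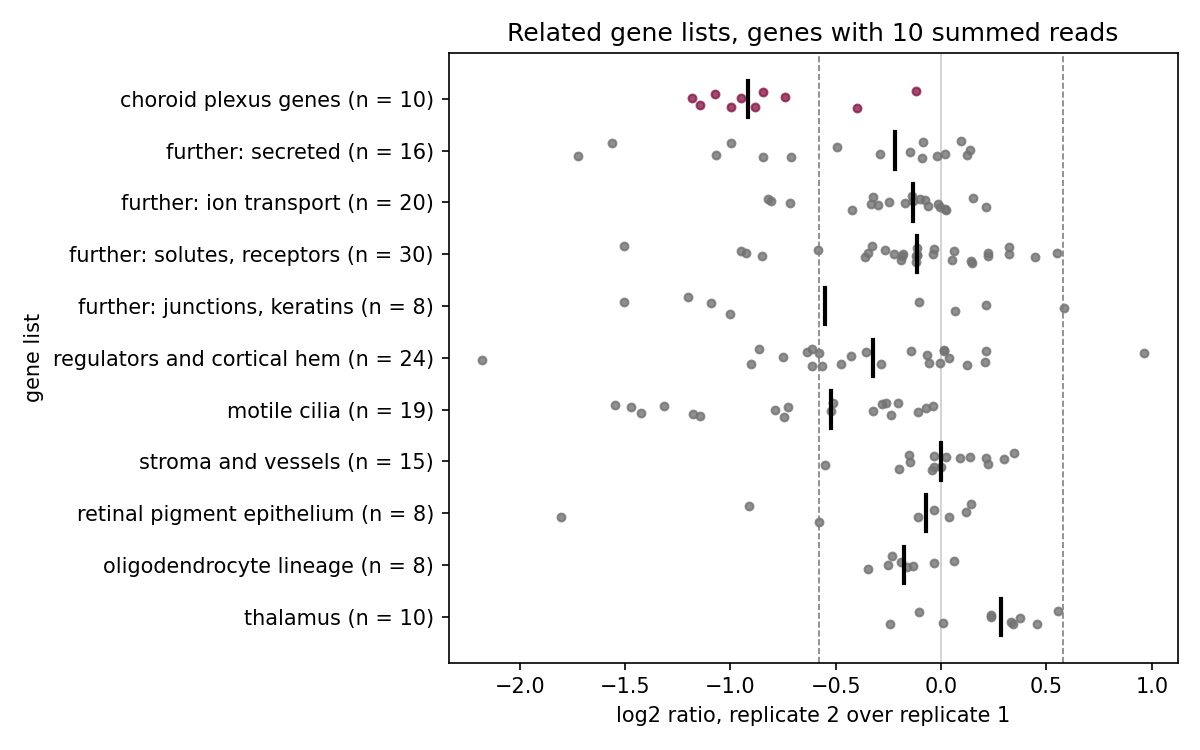
Log2 ratio of replicate 2 over replicate 1 for each gene with 10 or more summed reads (points, scattered vertically for sight), by list, with the list median as a black bar and dashed lines at -0.58 and 0.58. The 10 choroid plexus genes (dark red) have a median of -0.92, the motile cilia list -0.52, and the stroma and vessel list 0.00.

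Markers of other cell types that a forebrain pool could hold were set beside these values. Of 15 genes of stroma and vessels, 0 passed the limit in either direction, and their summed level was 319 and 330 TPM. Cldn5, the endothelial claudin, was highest at 72.0 and 78.2 TPM. Plvap, a gene of the fenestrated vessels that the choroid plexus contains, was at 4.93 and 4.39 TPM. Of 8 genes of the oligodendrocyte lineage, 0 passed, with a sum of 89.4 and 77.5 TPM, and Olig1 was highest at 27.8 and 24.5 TPM (-0.16). Of 11 genes of the retinal pigment epithelium, 8 had 10 reads, 2 of these were lower and 0 higher, and the sum was 88.8 and 84.4 TPM. Most of that sum was Rlbp1 (67.8 and 65.4 TPM), a gene of glia as well. The pigment cell regulator Mitf was at 1.47 and 0.78 TPM (-0.577), and the genes past the limit were Pmel (13 and 3 reads) and Lrat (13 and 6 reads). By TPM ratio 3 of the 8 were lower, with Mitf at -0.84 and Lrat at -0.49. With spike-in scaling Mitf was at -0.38 and 2 were lower. The defining gene Rpe65 had no read in either library, and 3 reads would have been 0.0853 TPM in replicate 1.

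Ttr is also known from liver and yolk sac, and 11 other genes of these tissues summed to 4.49 TPM in replicate 1 and 19.4 TPM in replicate 2, with 10 of the 11 past the limit, higher where Ttr was lower. Alb had 1 and 108 reads and Afp 1 and 152. The apolipoprotein genes Apoa2 (1.5 and 3.49 TPM) and Apoa1 (1.42 and 2.91 TPM) and Rbp4 (1.24 and 3.17 TPM), which encodes the retinol carrier that transthyretin binds, were the ones at 1 TPM in both libraries. Of 4 kidney tubule genes with 10 reads 3 were lower, while Calb1, highest of that list, was at 21.5 and 19.0 TPM (-0.11). Of the 10 genes in the thalamus list, 0 passed the limit in either direction, with a median of 0.28. Their sum was 304 and 353 TPM, and Tcf7l2 was highest at 78.0 and 107 TPM (0.46). With spike-in scaling 2 of the 10 were past the limit as higher, and 1 by TPM ratio. The globin and red cell list had 0 of 8 genes lower and 3 higher, and its sum was 11331 and 10385 TPM. The 4 globin genes and Alas2 lay below 0 with TMM scaling, among them Hba-a2, highest at 5025 and 4682 TPM (-0.08). With spike-in scaling these genes all lay above 0, from 0.01 for Hbb-bs to 0.12 for Hba-a2. Among those higher were Slc4a1 (1.47 and 2.19 TPM, 0.61) and Epb42 (7 and 24 reads). The part of these lists in the ratios of the 10 genes was not tested.

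Relatives of the members by family mostly lay nearer to 0 in ratio, and with spike-in scaling every ratio rises by 0.20, so that those between -0.20 and 0 turn positive. Among 13 other inward rectifier genes with 10 reads, 1 was lower and 3 were higher, and Kcnj8, highest of them, was at 12.2 and 11.02 TPM (-0.13). Among 8 other Slc4 family genes 0 were lower and 1, Slc4a1, was higher, with Slc4a3 at 28.9 and 28.4 TPM (0.05). Among 4 other chloride intracellular channel genes with 10 reads, 1 was lower and 0 were higher. The lower one was Clic5, at -0.96 (-0.76 with spike-in scaling and -0.32 by TPM ratio). Clic4 was at 94.4 and 96.3 TPM (0.05) and Clic1 at 82.1 and 83.1 TPM (0.04), both well above Clic6 per length. Of 3 other aquaporins with 10 reads, 2 were lower, and only Aqp11 reached 1 TPM in both libraries, at 8.25 and 7.26 TPM (-0.16).

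Of 8 folate genes other than Folr1, 1 was lower and 0 higher. Mthfd1, highest of the list, was at 34.2 and 34.5 TPM (0.03), and the reduced folate carrier Slc19a1 at 29.0 and 30.9 TPM. Its TPM was higher in replicate 2 while its log2 ratio from counts was -0.04, with an interval from -0.15 to 0.08. Folr2, the paralog of Folr1, had 25 and 31 reads. For klotho, its partner receptor Fgfr1 was at 45.5 and 40.1 TPM (-0.11), and the ligand Fgf23 had 3 reads in each library. For autotaxin, the receptor gene Lpar1 was at 24.5 and 23.4 TPM (0.03) and the phosphatase gene Plpp3 at 62.7 and 61.5 TPM (-0.01). Of 11 genes in that list with 10 reads, 1 was lower (Enpp1, -0.68) and 1 higher (Lpar3, 0.70). Thra, a thyroid hormone receptor gene and the highest of the list of thyroid hormone and retinol carriers, was at 136 and 137 TPM (0.04). Otx1, the paralog of Otx2, was at 8.10 and 8.74 TPM (0.12). It was 1 of 3 genes in the list set beside Otx2, and the other genes, Crx (-4.46) and the antisense gene Otx2os1 (-1.39), were lower.

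The 8 protein-coding genes outside the set whose ratio lay nearest to that of Ttr, with the same limits on reads and level, were Pifo, Pomc, Gm973, Sulf1, Sostdc1, Trh, Cfap126 and Hist1h2ai, with log2 ratios from -1.43 to -0.996. Sulf1, an extracellular sulfatase, was the most abundant of them at 20.3 and 9.91 TPM (-1.02). Pomc (8.80 and 3.89 TPM) and Trh (8.85 and 3.37 TPM) are hormone genes known from the hypothalamus. Hist1h2ai is 1 of many near-identical histone genes, so its reads may be split among copies. Likeness here means 1 ratio between 2 libraries.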

How the data were processed

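The labels describe separate pools of forebrain, each given 1 gene table and 1 transcript table. Reads were aligned by the authors to mm10 with GENCODE M4, per notes accompanying the files. Aligner, quantifier and strand were not given in the sources used here. Protocols in the labels link the manual of the SMARTer Ultra Low kit for cDNA, and the priming is not stated. The deposited expected counts are estimated reads per feature, the deposited TPM values (maximum-likelihood and posterior mean) correct them for length, and the deposited percent values give a transcript's share of its gene.

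Expected counts summed to 38720511 and 35103430, spike-ins being 2.44% and 2.13%. Counts were rounded, scaled by TMM (edgeR 4.0.16, R 4.3.3) over genes with 10 summed reads, and log2 ratios taken after adding 0.5 reads. With 1 group no test could be made. Alternatives were DESeq2 1.42.0 size factors, spike-in factors, total counts, no count filter, TPM ratios (pseudocount 0.1), 5 added reads and other thresholds. The ratio step was tested on simulated data. GENCODE M21, also on mm10, gave positions and names of transcripts, and RefSeq the promoters. Symbols matched 42462 of 43346 genes. Of the lists' genes, Ecrg4 had no match.

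The members and lists were chosen with earlier results of these data known. Named were all members, each role list's highest gene and its genes at 1 TPM and past the limit (at most 6), and the 8 genes nearest to Ttr in ratio. Some genes under this rule are not reported here. Family and marker genes outside that rule (among them Clu, Slc12a2, Cldn2, Plvap, Mitf, Pmel, Lrat, Epb42, Alas2, Alb, Afp, Rpe65, Kcne1, Gigyf2, Slc19a1, Folr2, Fgf23, Lpar1, Clic1 and Otx1) were chosen after their values were seen. Tables were handled in pandas 2.3.3 under Python 3.11.15, intervals came from scipy 1.17.1, and plots from matplotlib 3.10.9.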

Additional observations from a re-analysis of the deposited data

How the results depend on the processing

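With 2 libraries and 1 group, each ratio is a single value, and leaving out a replicate leaves no ratio. No paired analysis was possible because there was 1 group. Over the 7 other scalings and units, 69 of 70 member values stayed below 0. The exception was Kl with spike-in scaling (log2 ratio 0.081). Spike-in scaling also took Ttr to -0.98, Enpp2 to -0.20, Kcne2 to -0.80 and Otx2 to -0.54, outside their counting intervals. The median ratio of the 10 genes ranged from -0.92 to -0.72. The count at or below -0.58 was 7 or 8 of 10 under each of these, against 4.07% to 6.38% of all genes with 10 summed reads. At a 2-fold limit it was 3 in the main setting and 0 with spike-in scaling. It was 4 with total counts, no count filter and either TPM ratio, where Kcne2 passed as well. A detection limit of 5 TPM left 5 of 10 genes (8 at 1 TPM and at 0.5 TPM). The median level was 9.57 TPM, between 6.70 and 12.6 TPM in single libraries, and 11.7 CPM without length correction. The number of genes with a transcript above 90% was 6, and 7 in replicate 2 alone. Of 237 related genes over all lists, 48 were at or below the limit and 20 at or above 0.58 (6.3% and 5.12% of all genes). Those lower were 34 with spike-in scaling and 45 by TPM ratio (4.22% and 5.68% of all genes). The TPM ratio over these lists, the limit of 100 reads and the 2-fold limit with settings other than the main one were added after seeing the data. Depth limits Kl (30 and 25 reads) and Slc4a5 (82 and 40 reads).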

Other observations

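Crx, a gene of the Otx family and a homeodomain factor of the pineal gland and of photoreceptors, had 36 reads in replicate 1 and 1 read in replicate 2 (0.720 and 0.0200 TPM). After this value was seen, a list of 12 genes known from the pineal gland and photoreceptors was drawn up. Of these, 7 had 10 summed reads, and 5 of the 7 were at or below a log2 ratio of -0.58 and 0 at or above 0.58, against 6.3% and 5.12% of all genes. Without Crx, which prompted the list, 4 of 6 were lower. Tph1, the enzyme of peripheral and pineal serotonin synthesis, had 91 and 13 reads (-2.62), and the LIM factor Lhx4 had 15 and 2. Bsx, a homeodomain factor known from pineal and hypothalamus, had 42 and 17 reads, while the arrestin gene Sag had 115 and 91 (-0.19). The pineal enzyme Asmt had 0 reads in both libraries. The list was chosen after its first gene was seen and has no test.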
